A study of Homo sapiens with 9 samples.

Results

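Etoposide and merbarone both inhibit DNA topoisomerase II, by different routes, and their transcript profiles were set against each other in LNCaP cells, an established androgen-responsive line of human prostate cancer. The comparison takes the array of cells given etoposide and dihydrotestosterone (DHT, the main androgen of the prostate) minus the array of cells given merbarone and DHT, so it uses 2 of the 9 arrays of the series, 1 array a side. Etoposide cells and merbarone cells were both deprived of androgen for 48 h in medium with 5% charcoal-stripped serum. They then received their compound at 100 µM from 2 h before DHT, and 100 nM DHT for 16 h. The array of cells given the same deprivation and DHT with neither compound (DHT alone) and that of deprived cells without DHT (vehicle) serve as landmarks. The other 5 arrays are LNCaP cells grown in 10% serum (steady state) and cells transfected with a vector for either a control shRNA or a TOP2B shRNA and sorted for the green fluorescent protein it encodes, each with vehicle or DHT. No array holds a compound without DHT, and each group is 1 array of 1 cell line.

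Topoisomerase II cuts both strands of a DNA duplex, passes another duplex through the gap and reseals the cut, and while it does so it is joined to the DNA ends. A poison such as etoposide holds the enzyme in that joined state, the cleavage complex, which cells can process into a DNA break. A catalytic inhibitor such as merbarone acts on the cycle without building up cleavage complexes. Each class is represented here by a single compound at a single dose (100 µM) and time. Effects of the class, of the compound and of the dose therefore cannot be told apart. The beta isoform, encoded by TOP2B, is the form kept by non-dividing cells and is used at regulated promoters, among them those of androgen-responsive genes, while the alpha isoform, encoded by TOP2A, belongs to dividing cells.

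All values are deposited log2 expression levels, and a difference is etoposide with DHT minus merbarone with DHT on that scale, so that 1 is a 2-fold difference and a negative sign means lower with etoposide. A level below its own array's median (5.68 with etoposide and 5.61 with merbarone) counts as dim. Where 1 of the levels is dim, the difference is a bound, taken after raising that level to the median. A gene dim on both arrays is given no difference. Counts of genes, by call or by fold, use the levels as measured, dim ones included. Neither side was repeated. The limma test borrowed its spread from how far the DHT effect differed among 3 DHT and vehicle pairs (without compound, sh-control and sh-TOP2B), and assumed that the compound arrays vary like those. A gene was called at a Benjamini-Hochberg adjusted p under 0.05, and errors are standard errors (SE) of that fit. In each gene list the 4 leading called members were named by rule, and the other members named were chosen after their values were seen.

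The cells kept the marker profile of luminal prostate epithelium with both compounds. Of 7 luminal markers measured, 7 stood above the array median with etoposide, 6 with merbarone (KLK3 was the exception) and 7 with DHT alone. Markers of basal epithelium, stroma, immune cells, neuroendocrine cells and endothelium stood above it for at most 2 members of any list on any of these arrays. The gap between the end and start probe sets of the beta-actin transcript, a sign of RNA quality, was 0.54 with etoposide, 0.38 with merbarone, 0.46 with DHT alone and 0.47 with vehicle (log2). Over 54675 probe sets, Pearson's r was 0.974 between etoposide and merbarone, 0.990 between etoposide and DHT alone and 0.972 between merbarone and DHT alone. The share of dead cells and the cell numbers at harvest are not given, and in such bulk samples fewer cells of a state and less RNA per cell cannot be told apart.

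Of 11865 genes tested, 1601 were higher (13.5%) and 2262 lower (19.1%) with etoposide than with merbarone by limma. By size alone, 715 were at least 2-fold higher (6.03%) and 972 at least 2-fold lower (8.19%), and of these 680 and 923 were also called. Differences of at least 8-fold were measured for 15 genes higher and 27 lower. The median SE was 0.20 and the median difference over all genes was -0.03. The split between directions depended on scaling: higher genes made up 41.4% of calls here, 24.0% after the arrays were centred on housekeeping genes and 50.3% after a second quantile normalization. Among called genes with a second bright probe set, 85.5% had the same direction in it (1933 of 2261), and 91.7% did among those at least 4-fold apart.

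Among the genes tested, those furthest above merbarone levels with etoposide were UGT2B15, CCL8, LPAR6, ANKRD36B, PPP1R10, TNFSF10 and VNN1. Those furthest below, again among the genes tested, were KLF6, BHLHE40, GADD45B, GBP1, UAP1L1, NDRG4 and IRF1. UGT2B15, an enzyme that inactivates androgens by glucuronidation, stood at 10.14 with etoposide, against 5.85 with merbarone, 11.59 with DHT alone and 11.59 with vehicle. PPP1R10, a nuclear targeting subunit of protein phosphatase 1, stood at 9.22 with etoposide and was dim with merbarone at 5.40, against 9.06 with DHT alone and 9.25 with vehicle. KLF6, a zinc finger transcription factor induced by many stresses, stood at 7.60 with etoposide, against 11.60 with merbarone, 7.44 with DHT alone and 7.30 with vehicle. In UGT2B15, PPP1R10 and KLF6 the etoposide array lay nearer to DHT alone and the merbarone array was the one far away. The differences were 4.30 ± 0.22 for UGT2B15 (19.6-fold, adjusted p = 0.00032), at least 3.61 for PPP1R10 (at least 12.2-fold, adjusted p = 0.00023) and -4.00 ± 0.21 for KLF6 (16.0-fold lower, adjusted p = 0.00032). Probe sets of a gene differed in size for several of them: from 0.37 to 4.30 over 3 probe sets of UGT2B15, from -4.00 to -0.20 over 5 of KLF6 and from 0.29 to 4.19 over 2 of LPAR6.

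**Figure D1:**
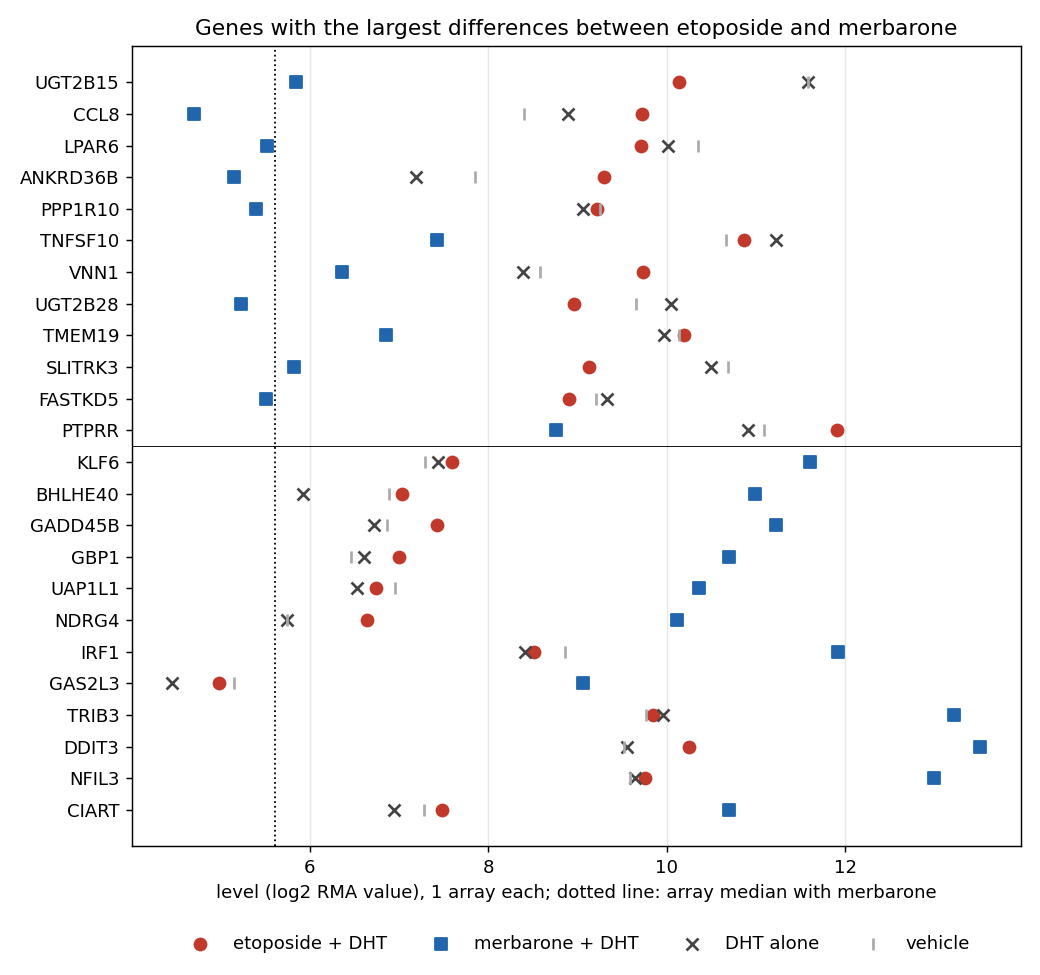
Levels (log2 RMA value, horizontal axis) of the 12 tested genes furthest higher (upper rows) and the 12 tested genes furthest lower (lower rows) with etoposide than with merbarone, 1 array a group. Circles are etoposide with DHT, squares merbarone with DHT, crosses DHT alone and bars vehicle. The merbarone square is the mark set apart in nearly all rows, as for TRIB3 at 13.22 with merbarone against 9.85 with etoposide, 9.96 with DHT alone and 9.77 with vehicle.

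Among called genes at least 2-fold from DHT alone with either compound, most were that far from it with merbarone only. Measured from the DHT array with no test, 74 genes were at least 2-fold higher and 168 at least 2-fold lower with etoposide, against 808 higher and 895 lower with merbarone. Of the 3863 genes called between the compounds, 1398 (36.2%) were at least 2-fold from DHT alone with merbarone only, 696 of them higher and 702 lower with etoposide than with merbarone. Only 75 (1.94%) were at least 2-fold from DHT alone with etoposide only, 18 of them higher and 57 lower. A further 43 moved that far to the same side with both compounds, 6 to opposite sides, and 2341 (60.6%) that far with neither. Both distances are taken from the same DHT array, so an error in that array enters both.

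The p53 pathway, which etoposide is best known for activating, was up with both compounds against DHT alone, and more of its genes stood higher with merbarone. Of 33 target genes tested, 6 were higher and 14 lower with etoposide, against 13.5% and 19.1% of all genes, with a list median of -0.42. Against DHT alone the list median was 0.82 with etoposide and 1.31 with merbarone, and 14 targets were at least 2-fold above DHT alone with etoposide and 22 with merbarone. Of all 11865 genes tested, only 74 were that far above DHT alone with etoposide, against 808 with merbarone. The transcripts most used as read-outs of p53 were among those that did not pass the test between the compounds. CDKN1A, the cyclin-dependent kinase inhibitor p21, stood at 13.03 with etoposide, against 13.22 with merbarone, 11.25 with DHT alone and 11.62 with vehicle (difference -0.19 ± 0.19, adjusted p = 0.49). MDM2, the ubiquitin ligase that holds p53 down, stood at 11.62 with etoposide, against 11.69 with merbarone, 9.78 with DHT alone and 9.82 with vehicle (difference -0.07 ± 0.10, adjusted p = 0.66). Both compound arrays thus lay above both arrays without a compound for these genes.

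The targets that separated were led by stress sensors and death genes on the merbarone side. GADD45A, which binds PCNA and stress kinases, stood at 10.52 with etoposide, against 12.59 with merbarone, 8.33 with DHT alone and 8.45 with vehicle (-2.07 ± 0.31, adjusted p = 0.0042). AEN, an apoptosis-enhancing nuclease, stood at 9.14 with etoposide, against 11.16 with merbarone, 8.32 with DHT alone and 8.32 with vehicle (-2.02 ± 0.15, adjusted p = 0.00049). SESN2, which restrains mTORC1 and is also induced by amino acid stress, differed by -1.92 ± 0.24, and PHLDA3, an inhibitor of AKT, by -1.82 ± 0.17. In the opposite direction, TRIM22 stood at 9.68 with etoposide, against 8.71 with merbarone, 7.40 with DHT alone and 7.69 with vehicle (0.97 ± 0.22, adjusted p = 0.019). TP53INP1 stood at 12.27 with etoposide, against 11.46 with merbarone, 11.90 with DHT alone and 12.18 with vehicle (0.81 ± 0.12, adjusted p = 0.0038), so merbarone was the low array there. TP53I3, an oxidoreductase gene, stood at 9.70 with etoposide, against 8.32 with merbarone and 6.99 with DHT alone (1.37 ± 0.38, adjusted p = 0.032). Its call, and those of SPATA18 (0.66 ± 0.20) and PERP (0.38 ± 0.09), were lost when the sh-TOP2B pair was left out, which left 3 targets called higher. Over the settings tried, the number of targets higher with etoposide ranged from 1 (arrays centred on housekeeping genes) to 6 and the number lower from 10 to 17.

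**Figure D2:**
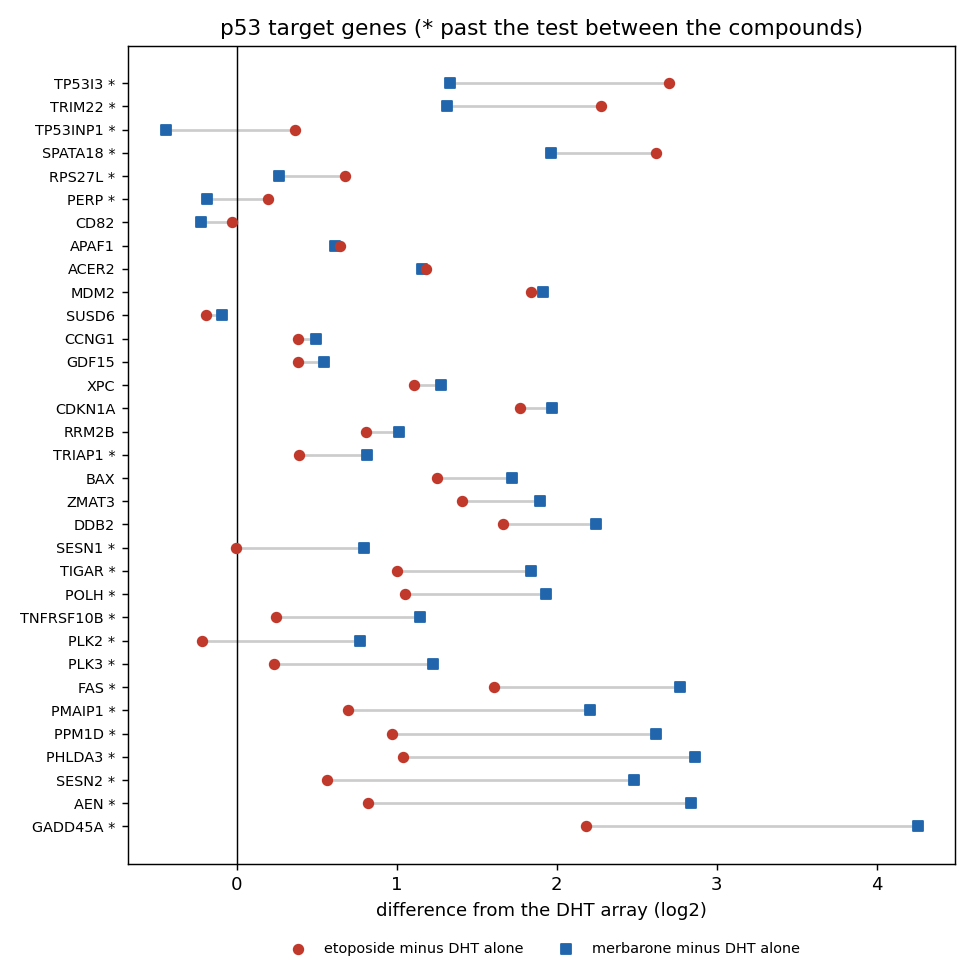
Differences from DHT alone (log2, horizontal axis) of the 33 p53 target genes tested, 1 array a group, ordered from highest to lowest etoposide minus merbarone; circles are etoposide, squares merbarone and an asterisk marks genes called between the compounds. The pairs of marks nearly coincide for MDM2 and CDKN1A, while GADD45A lies at 2.18 with etoposide and 4.26 with merbarone.

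All 3 GADD45 genes were lower with etoposide, against 19.1% of all genes. GADD45A was also counted among the p53 targets above. GADD45B stood at 7.43 with etoposide, against 11.22 with merbarone, 6.72 with DHT alone and 6.86 with vehicle (-3.79 ± 0.26, adjusted p = 0.00039), although its 4 probe sets ran from -4.03 to -0.90. GADD45G stood at 9.68 with etoposide, against 11.33 with merbarone, 9.41 with DHT alone and 9.36 with vehicle (-1.66 ± 0.27, adjusted p = 0.0054). The BCL2 family, which sets the threshold for mitochondrial death, had 0 members higher and 3 lower of 17 (17.6% called), against 13.5% and 19.1% of all genes. BCL2 itself, the founding anti-apoptotic member, stood at 5.72 with etoposide, against 8.26 with merbarone, 5.84 with DHT alone and 5.67 with vehicle (-2.54 ± 0.44, adjusted p = 0.0067). Its median over probe sets was only -0.47 and not called (adjusted p = 0.245). PMAIP1, the pro-apoptotic BH3-only gene NOXA, differed by -1.51 ± 0.13 and BCL2L11, which encodes BIM, by -0.78 ± 0.16. The 7 probe sets of BCL2L11 ran from -2.43 to 0.66.

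Genes that sense and repair breaks separated little. Of 31 genes of double-strand break repair and its checkpoint, 2 were higher and 5 lower, neither share above that of all genes (13.5% and 19.1%), and without either shRNA pair 1 was higher and 2 lower. WEE1, the kinase that holds CDK1 inactive, stood at 10.18 with etoposide, against 12.05 with merbarone, 10.46 with DHT alone and 10.72 with vehicle (-1.88 ± 0.11, adjusted p = 0.00036). PALB2, the partner of BRCA2, stood at 7.72 with etoposide, against 9.14 with merbarone, 7.59 with DHT alone and 7.72 with vehicle (-1.42 ± 0.19, adjusted p = 0.0030). The drug target TOP2B stood at 9.94 with etoposide, against 10.03 with merbarone, 10.57 with DHT alone and 10.55 with vehicle (-0.09 ± 0.17, adjusted p = 0.76). TOP2A was dim on both arrays (2.45 with etoposide and 3.44 with merbarone, against 10.42 in steady state), so no difference is given. TDP2, the enzyme that frees DNA ends from trapped topoisomerase II, stood at 11.28 with etoposide, against 11.22 with merbarone and 11.08 with DHT alone (0.06 ± 0.12, adjusted p = 0.75). The levels of the target and of its adduct-removing enzyme thus lay within an SE of each other, while those of TOP1MT, the mitochondrial topoisomerase, were lower with etoposide (-1.17 ± 0.29), a call lost when the sh-control pair was left out.

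Among the programmes that set merbarone apart was the integrated stress response, the branch in which phosphorylation of eIF2 alpha slows translation and raises the transcription factor ATF4, which then drives amino acid supply, tRNA charging and, when prolonged, death genes. Of 26 genes tested, 1 was higher and 16 lower with etoposide, and of 17 cytosolic tRNA synthetases 0 were higher and 11 lower, against 13.5% and 19.1% of all genes. The medians were -0.84 and -0.61. Against DHT alone the median of the stress response list was 0.05 with etoposide and 0.75 with merbarone, and 0 genes were at least 2-fold above DHT alone with etoposide, against 11 with merbarone. Of all 11865 genes tested, 74 were that far above it with etoposide and 808 with merbarone. DDIT3, the death-promoting factor CHOP, stood at 10.25 with etoposide, against 13.51 with merbarone, 9.56 with DHT alone and 9.53 with vehicle (-3.26 ± 0.19, adjusted p = 0.00035). ATF3 stood at 11.31 with etoposide, against 14.06 with merbarone, 10.49 with DHT alone and 10.66 with vehicle (-2.75 ± 0.20, adjusted p = 0.00047). TRIB3, the pseudokinase that feeds back on ATF4, differed by -3.36 ± 0.18, and PPP1R15A, the phosphatase subunit that restores translation, by -2.66 ± 0.23. ATF4, which is set mainly through translation, stood at 12.71 with etoposide, against 13.25 with merbarone, 12.65 with DHT alone and 12.62 with vehicle (-0.55 ± 0.10), a call lost under 2 of the settings tried. Every one of these genes had its etoposide level within 1 of DHT alone. The exception to the direction was ALDH18A1, of proline synthesis (0.90 ± 0.16).

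The amino acid and charging genes named next moved by less than DDIT3, TRIB3 and ATF3, and their dependence on ATF4 was not tested. ASNS, asparagine synthetase, stood at 11.86 with etoposide, against 12.72 with merbarone, 11.63 with DHT alone and 11.63 with vehicle (-0.86 ± 0.20, adjusted p = 0.020), a call lost under 2 of the settings tried. SHMT2 and MTHFD2, of mitochondrial one-carbon metabolism, differed by -1.05 ± 0.08 and -1.14 ± 0.11. AARS1, the alanine synthetase, stood at 11.94 with etoposide, against 13.20 with merbarone, 12.18 with DHT alone and 12.12 with vehicle (-1.26 ± 0.11, adjusted p = 0.00077). SARS1 and YARS1 differed by -1.44 ± 0.12 and -1.22 ± 0.11. FARSA, a subunit of the phenylalanine enzyme, differed from these, at 8.63 with etoposide, against 9.85 with merbarone, 9.92 with DHT alone and 9.90 with vehicle, so there the etoposide array was the low one. The number of synthetases lower ranged from 6 to 12 of 17 over the settings tried.

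The promoters of ASNS and AARS1 are shown because both genes hold, in the 250 bases before the RefSeq start (assembly GRCh38.p14), the letters TGATGNAA of the composite element that ATF4 and C/EBP factors bind. Letters were searched on both strands. Capitals mark the match, which lies 68 bases before the start in ASNS (chr7:97872409-97872658, minus strand) and 187 bases before it, on the opposite strand, in AARS1 (chr16:70289507-70289756, minus strand).
ASNS: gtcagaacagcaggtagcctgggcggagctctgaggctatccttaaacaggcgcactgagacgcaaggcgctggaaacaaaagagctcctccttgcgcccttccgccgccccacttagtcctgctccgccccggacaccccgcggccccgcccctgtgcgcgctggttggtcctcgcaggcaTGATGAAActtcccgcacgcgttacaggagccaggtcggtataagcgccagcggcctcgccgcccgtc
AARS1: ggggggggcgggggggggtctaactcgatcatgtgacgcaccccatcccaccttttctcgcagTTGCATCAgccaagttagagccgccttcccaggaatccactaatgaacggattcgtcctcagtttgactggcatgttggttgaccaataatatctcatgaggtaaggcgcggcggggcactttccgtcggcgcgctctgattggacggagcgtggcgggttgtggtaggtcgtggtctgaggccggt
The element was present in 3 of 21 promoters of the stress response list and in 2 of 14 synthetase promoters (14.3% each), against 3.19% of all 27305 promoters of this length and 1.31% of the 9702 tested genes with a promoter. The other members, DDIT3 and TRIB3 among them, had no match in this window.

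The unfolded protein response of the endoplasmic reticulum, which shares ATF4 with the stress response above, separated in the opposite direction. Of 22 genes, 8 were higher and 3 lower with etoposide, against 13.5% and 19.1% of all genes. However, 0 were called higher after centring on housekeeping genes. Chaperone and degradation genes were on the etoposide side: EDEM1, which delivers misfolded glycoproteins for degradation, stood at 10.24 with etoposide, against 9.29 with merbarone, 10.28 with DHT alone and 10.29 with vehicle (0.95 ± 0.22, adjusted p = 0.018). PDIA6, a disulfide isomerase, stood at 11.96 with etoposide, against 11.41 with merbarone, 12.31 with DHT alone and 12.31 with vehicle (0.54 ± 0.09, adjusted p = 0.0050). ERN1, the sensor IRE1 alpha, and its target XBP1 were on the merbarone side, with differences of -1.70 ± 0.37 and -0.59 ± 0.11. ERN1 was not called with the median over probe sets, and without the sh-TOP2B pair 4 of the list were higher and 2 lower.

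Circadian clock genes formed another merbarone group, with 0 members higher and 7 lower of 13, against 13.5% and 19.1% of all genes. Their median was -0.83. Against DHT alone the median was 0.11 with etoposide and 1.43 with merbarone, and 1 gene was at least 2-fold above DHT alone with etoposide, against 8 with merbarone. Of all 11865 genes tested, 74 were that far above it with etoposide and 808 with merbarone. BHLHE40, a repressor that binds E-boxes and is also induced by hypoxia and stress, stood at 7.04 with etoposide, against 10.99 with merbarone, 5.93 with DHT alone and 6.89 with vehicle (-3.95 ± 0.71, adjusted p = 0.0075). NFIL3, a repressor at D-boxes, stood at 9.76 with etoposide, against 13 with merbarone, 9.64 with DHT alone and 9.58 with vehicle (-3.24 ± 0.15, adjusted p = 0.00023). CIART, a repressor of the core clock dimer, stood at 7.49 with etoposide, against 10.70 with merbarone, 6.95 with DHT alone and 7.29 with vehicle (-3.21 ± 0.23, adjusted p = 0.00049). HLF, an activator at D-boxes, and BMAL1, of the core clock dimer, differed by -2.31 ± 0.23 and -2.09 ± 0.28, while CLOCK, its partner, differed by -0.25 ± 0.14 (adjusted p = 0.22). Activators and repressors of the clock thus both stood on the merbarone side. The CIART promoter is shown because it holds 3 copies of the E-box CACGTG (capitals), which lie 129, 71 and 57 bases before the start (chr1:150282304-150282553, plus strand, GRCh38.p14).
CIART: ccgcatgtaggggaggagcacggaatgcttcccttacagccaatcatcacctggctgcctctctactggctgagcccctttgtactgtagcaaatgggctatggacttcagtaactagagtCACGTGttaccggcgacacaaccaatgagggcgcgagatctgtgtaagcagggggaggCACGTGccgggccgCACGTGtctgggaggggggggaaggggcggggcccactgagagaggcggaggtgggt
CACGTG was present in 3 of 13 clock promoters (23.1%), against 6.49% of all promoters and 9.07% of those of tested genes, and the D-box letters TTANGTAA in 1 of 13, against 2.07% of all promoters.

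Stress-induced transcription factors of other families followed. Of 11 Kruppel-like factors, 0 were higher and 6 lower with etoposide, against 13.5% and 19.1% of all genes, with a median of -0.85. KLF11 stood at 7.55 with etoposide, against 10.46 with merbarone, 7.53 with DHT alone and 7.44 with vehicle (-2.91 ± 0.16, adjusted p = 0.00032), and KLF10, an early gene of TGF-beta signalling, differed by -2.02 ± 0.18. Of 14 immediate early genes, 2 were higher and 5 lower, against 13.5% and 19.1% of all genes. FOS stood at 6.42 with etoposide, against 9.10 with merbarone, 6.96 with DHT alone and 7.30 with vehicle (-2.68 ± 0.31, adjusted p = 0.0017), and CCN1, a matricellular early gene, differed by -3.09 ± 0.36. MYC was on the opposite side, at 9.90 with etoposide, against 8.83 with merbarone, 11.21 with DHT alone and 11.02 with vehicle (1.06 ± 0.13, adjusted p = 0.0022). Both compound arrays lay below both others for MYC, the merbarone array furthest. Its call was lost after centring on housekeeping genes. Of 15 MAPK phosphatases, Sproutys and Spreds, which damp growth factor signalling, 1 was higher (SPRED2, 1.16 ± 0.20) and 3 lower, led by DUSP5 (-2.79 ± 0.51), against 13.5% and 19.1% of all genes, with 4 higher and 5 lower when the inhibitor-series pair was left out.

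NF-kB genes were mostly lower with etoposide, while most interferon-stimulated genes did not pass the test. Of 15 NF-kB feedback and target genes, 2 were higher and 9 lower, against 13.5% and 19.1% of all genes, with a median of -0.73. RELB, a subunit of NF-kB, stood at 7.65 with etoposide, against 9.76 with merbarone, 7.57 with DHT alone and 7.75 with vehicle (-2.11 ± 0.39, adjusted p = 0.0085). TNF stood at 8.26 with etoposide, against 10.23 with merbarone, 7.76 with DHT alone and 8.14 with vehicle (-1.97 ± 0.29, adjusted p = 0.0039). NFKBIZ, an atypical nuclear I kappa B, went the opposite way, at 11.10 with etoposide, against 9.27 with merbarone, 10.25 with DHT alone and 10.38 with vehicle (1.83 ± 0.19, adjusted p = 0.0012). Of 35 interferon-stimulated genes, 4 were higher and 10 lower, against the same shares of all genes, and 21 did not pass the test. IRF1, the interferon gamma-responsive factor, stood at 8.52 with etoposide, against 11.92 with merbarone, 8.42 with DHT alone and 8.86 with vehicle (-3.40 ± 0.22, adjusted p = 0.00038). GBP1, its guanylate-binding target, differed by -3.69 ± 0.23, though its 4 probe sets ran from -3.69 to -0.22, and RSAD2 and IFIH1 differed by -2.05 ± 0.33 and -1.77 ± 0.23. OAS1, which senses double-stranded RNA, was higher with etoposide by 1.15 ± 0.26.

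Genes of secreted and death ligands included some that were low with merbarone. Of 11 chemokines and cytokines tested, 1 was higher and 2 lower with etoposide, against 13.5% and 19.1% of all genes, and a further 10 were left out of the tests as dim. Among those 10, CXCL2, a neutrophil chemokine, stood at 5.09 (dim) with etoposide, against 10.57 with merbarone, 3.75 with DHT alone and 4.04 with vehicle, and its relative CXCL3 at 4.57 (dim) with etoposide, against 7.46 with merbarone, 4.50 with DHT alone and 4.59 with vehicle. CCL8, a monocyte chemokine, stood at 9.72 with etoposide and was dim with merbarone at 4.71, against 8.89 with DHT alone and 8.41 with vehicle (at least 4.11 higher, at least 17.3-fold). TNFSF10, the death ligand TRAIL, stood at 10.87 with etoposide, against 7.42 with merbarone, 11.23 with DHT alone and 10.67 with vehicle (3.44 ± 0.36, adjusted p = 0.0013). Its receptor gene TNFRSF10B was on the other side, at 11.81 with etoposide, against 12.71 with merbarone, 11.56 with DHT alone and 11.59 with vehicle (-0.90 ± 0.16, adjusted p = 0.0068), and FAS, another death receptor, differed by -1.16 ± 0.26. CXCL10, an interferon chemokine, stood at 7.63 with etoposide, against 8.78 with merbarone, 8.80 with DHT alone and 8.78 with vehicle (-1.15 ± 0.16), so there etoposide was the array set apart.

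Metallothioneins are small proteins that bind zinc and copper and are induced by metals through MTF1. Of 6 genes tested, 0 were higher and 5 lower with etoposide, against 13.5% and 19.1% of all genes. Their median was -1.44 (-0.38 with etoposide and 0.95 with merbarone against DHT alone). MT1X stood at 10.81 with etoposide, against 12.34 with merbarone, 11.27 with DHT alone and 11.27 with vehicle (-1.53 ± 0.10, adjusted p = 0.00038). MT1F, MT1G and MT2A differed by -1.59 ± 0.14, -1.54 ± 0.12 and -1.34 ± 0.16. Members of this family are so alike that their probes can share transcripts, so the 5 calls are not 5 separate measurements. HMOX1, the haem oxygenase induced by oxidants and metals, stood at 7.12 with etoposide, against 9.16 with merbarone, 7.12 with DHT alone and 6.92 with vehicle (-2.05 ± 0.37, adjusted p = 0.0078). The NRF2 list of antioxidant genes as a whole did not follow it: 3 of 16 were higher and 2 lower, against 13.5% and 19.1% of all genes. PRDX1, a peroxiredoxin, was higher with etoposide by 1.32 ± 0.07.

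Autophagy and lysosome genes had 2 members higher and 11 lower of 28, against 13.5% and 19.1% of all genes, with a median of -0.33. TFEB, the master regulator of lysosome genes, stood at 6.33 with etoposide, against 8.12 with merbarone, 6.33 with DHT alone and 6.43 with vehicle (-1.79 ± 0.29, adjusted p = 0.0056), a call lost with the median over probe sets. FLCN, which controls TFEB at the lysosome, stood at 8.15 with etoposide, against 10.04 with merbarone, 7.65 with DHT alone and 7.80 with vehicle (-1.90 ± 0.16, adjusted p = 0.00065). MAP1LC3B, the autophagosome coat protein LC3B, differed by -0.95 ± 0.12 and the cargo receptor SQSTM1 by -0.72 ± 0.15. CTSB, a lysosomal protease, was higher by 0.61 ± 0.10.

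Histone genes made up a group on the etoposide side. Of 21 replication-dependent and linker histone genes tested, 12 were higher and 0 lower, against 13.5% and 19.1% of all genes, with a median of 0.79 (0.26 with etoposide and -0.50 with merbarone against DHT alone). After centring on housekeeping genes 4 were called higher and 0 lower. H2BC4 stood at 11.28 with etoposide, against 8.76 with merbarone, 10.41 with DHT alone and 10.78 with vehicle (2.53 ± 0.15, adjusted p = 0.00035). H2BC21 stood at 12.96 with etoposide, against 10.51 with merbarone, 12.64 with DHT alone and 12.71 with vehicle (2.45 ± 0.09, adjusted p = 0.00023). H2AC17 and H2BC5 were higher by 1.19 ± 0.14 and 1.12 ± 0.10. H4C5 was the member furthest above DHT alone with etoposide, at 9.33 with etoposide, against 8.45 with merbarone, 8.17 with DHT alone and 8.52 with vehicle (0.88 ± 0.18). For H2BC4 and H2BC21 merbarone was below DHT alone and etoposide above it, by 0.87 and 0.32. Replication-dependent histone transcripts normally lack a poly(A) tail, and near-identical copies can share probes, so which member and which form were measured is uncertain. H2AX, the variant phosphorylated around breaks, stood at 9.51 with etoposide, against 8.07 with merbarone, 9.85 with DHT alone and 9.71 with vehicle (1.43 ± 0.16, adjusted p = 0.0017), a call lost with the median over probe sets. Of the 9 replacement histone genes, H3-3A and CENPA were also called higher and H1-10 and H2AJ lower, and of these 4 only CENPA kept its call when an shRNA pair was left out.

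The promoters of H2BC4 and H2BC21, the histone genes furthest apart, are shown because both hold the octamer ATTTGCAT (capitals), which OCT1 binds to drive H2B transcription. It lies 123 bases before the start in H2BC4 (chr6:26123927-26124176, minus strand) and 46 bases before it in H2BC21 (chr1:149886683-149886932, minus strand), in RefSeq's GRCh38.p14.
H2BC4: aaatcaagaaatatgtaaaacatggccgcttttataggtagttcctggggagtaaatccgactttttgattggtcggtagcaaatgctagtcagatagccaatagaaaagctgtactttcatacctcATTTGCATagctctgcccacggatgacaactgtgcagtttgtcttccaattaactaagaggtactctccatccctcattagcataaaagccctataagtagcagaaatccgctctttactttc
H2BC21: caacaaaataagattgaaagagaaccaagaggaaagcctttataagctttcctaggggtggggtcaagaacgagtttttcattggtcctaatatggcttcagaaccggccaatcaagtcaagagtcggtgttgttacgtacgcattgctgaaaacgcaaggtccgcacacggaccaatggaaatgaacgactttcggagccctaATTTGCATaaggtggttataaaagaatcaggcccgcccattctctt
The octamer was present in 10 of 21 histone promoters (47.6%) and in 6 of 8 H2B promoters, against 1.66% of all promoters and 1.19% of those of tested genes. H2A and H2B genes often share 1 divergent promoter, so the H2A matches are partly the same sites. It was in 0 promoters of the stress response, synthetase and clock lists.

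Nuclear factors of splicing and of transcription elongation were split. Of 17 SR proteins and nuclear speckle factors, 8 were higher and 4 lower with etoposide, against 13.5% and 19.1% of all genes. LUC7L3 stood at 11.30 with etoposide, against 8.83 with merbarone, 11.32 with DHT alone and 11.45 with vehicle (2.47 ± 0.11, adjusted p = 0.00023). SRSF5 stood at 12.05 with etoposide, against 10.26 with merbarone, 11.69 with DHT alone and 11.80 with vehicle (1.79 ± 0.12, adjusted p = 0.00038), and SRSF6 was higher by 1.66 ± 0.10. Without the sh-TOP2B pair 5 of the list were higher. The kinases that phosphorylate SR proteins were on the other side: CLK1 stood at 10.18 with etoposide, against 11.27 with merbarone, 9.57 with DHT alone and 9.51 with vehicle (-1.08 ± 0.15, adjusted p = 0.0031). HEXIM1, the inhibitor of the elongation factor P-TEFb, stood at 10.75 with etoposide, against 8.61 with merbarone, 10.29 with DHT alone and 10.28 with vehicle (2.14 ± 0.13, adjusted p = 0.00035). The Mediator and P-TEFb list as a whole had 4 higher and 4 lower of 22, against 13.5% and 19.1% of all genes. It had 8 higher without the inhibitor-series pair and 2 without the sh-TOP2B pair. CDK8, the Mediator kinase, stood at 8.39 with etoposide, against 10.04 with merbarone, 9.51 with DHT alone and 9.97 with vehicle (-1.65 ± 0.20), with etoposide as the low array.

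Chaperones of the heat shock response gave 7 higher and 3 lower of 17, against 13.5% and 19.1% of all genes. HSPH1, a nucleotide exchange factor of HSP70, stood at 11.46 with etoposide, against 9.97 with merbarone, 11.32 with DHT alone and 11.28 with vehicle (1.49 ± 0.11, adjusted p = 0.00050). DNAJA1 and HSP90AA1 were higher by 0.55 ± 0.09 and 0.45 ± 0.08. HSPA4L and the mitochondrial HSPA9 differed by -1.81 ± 0.36 and -1.47 ± 0.09. After centring on housekeeping genes 2 were called higher and 3 lower.

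Androgen-induced genes stood higher with etoposide, although KLK3 and KLK2 were dim with merbarone. Of 40 genes tested, 11 were higher and 2 lower, against 13.5% and 19.1% of all genes, with a median of 0.47 (0.44 with dim levels raised to the array's median). Against DHT alone the median was -0.37 with etoposide and -0.86 with merbarone, and 8 genes were at least 2-fold below DHT alone with etoposide, against 17 with merbarone. Of all 11865 genes tested, 168 were that far below it with etoposide and 895 with merbarone. KLK3, the gene of prostate-specific antigen, stood at 7.68 with etoposide and 5.56 (dim) with merbarone, against 11.02 with DHT alone and 5.68 with vehicle, at least 2.06 higher with etoposide (at least 4.18-fold, adjusted p = 0.00075). SLC45A3, an androgen-driven transporter of luminal cells, stood at 9.34 with etoposide, against 6.52 with merbarone, 9.87 with DHT alone and 8.46 with vehicle (2.82 ± 0.36, adjusted p = 0.0024). PMEPA1, an androgen-induced inhibitor of TGF-beta signalling, stood at 9.54 with etoposide, against 7.46 with merbarone, 10.48 with DHT alone and 9.37 with vehicle (2.08 ± 0.31, adjusted p = 0.0040). For these 3 genes etoposide lay between DHT alone and merbarone, and for SLC45A3 and PMEPA1 merbarone lay below vehicle. KLK2 was at least 0.54 higher, a call lost when the sh-control pair was left out.

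Not every androgen gene followed. TMPRSS2, the androgen-driven protease gene often fused to ERG, stood at 10.02 with etoposide, against 9.41 with merbarone, 11.35 with DHT alone and 9.84 with vehicle (0.60 ± 0.33, adjusted p = 0.22). FKBP5, a co-chaperone of steroid receptors, stood at 9.41 with etoposide, against 10.11 with merbarone, 10.34 with DHT alone and 9.33 with vehicle (-0.71 ± 0.35, adjusted p = 0.18). TSC22D3, the glucocorticoid-induced leucine zipper gene, differed by -1.01 ± 0.17. Without the sh-control pair 7 androgen genes were called higher, and without the inhibitor-series pair 21.

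The glucuronosyltransferases, which clear androgens from the cell, gave 3 of 3 higher with etoposide, against 13.5% of all genes. The count was 3 under every setting tried. UGT2B17 stood at 8.24 with etoposide and 4.11 (dim) with merbarone, against 10.59 with DHT alone and 9.38 with vehicle, at least 2.62 higher. UGT2B28 stood at 8.97 with etoposide and 5.24 (dim) with merbarone, against 10.05 with DHT alone and 9.65 with vehicle, at least 3.35 higher. These paralogs share sequence, so their probes cannot be assigned with certainty. The 3 calls may therefore not be 3 separate measurements. Both compounds were below DHT alone and below vehicle, merbarone by far more.

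Luminal identity factors were higher with etoposide in 6 of 15 genes, with 0 lower, against 13.5% and 19.1% of all genes. HOXB13, a prostate homeobox gene, stood at 10.27 with etoposide, against 9.56 with merbarone, 11.09 with DHT alone and 11.27 with vehicle (0.71 ± 0.16, adjusted p = 0.016). FOXA1, a pioneer transcription factor of luminal cells, stood at 10.46 with etoposide, against 9.81 with merbarone, 10.58 with DHT alone and 10.70 with vehicle (0.65 ± 0.14, adjusted p = 0.013). Their calls, unlike that of SLC45A3, were lost after centring on housekeeping genes, which left 1 gene called. Of 24 sterol and fatty acid synthesis genes, 5 were higher, led by the elongase ELOVL6 (0.87 ± 0.14), and 1 lower, against 13.5% and 19.1% of all genes. After that centring 0 were called either way, and without the inhibitor-series pair 10 were higher and 2 lower.

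Cell cycle genes did not separate cleanly. Of 33 mitosis genes, 4 were higher and 8 lower, against 13.5% and 19.1% of all genes. Of the 33, 14 were dim on both arrays, and the median of -0.23 became 0.06 with dim levels raised to the array medians. CCNB1, the mitotic cyclin B1, stood at 7.63 with etoposide, against 8.50 with merbarone, 9.32 with DHT alone and 8.85 with vehicle (-0.87 ± 0.17, adjusted p = 0.010). Its 2 probe sets differed in sign (-0.87 and 0.56), and their median of -0.16 was not called. CCNA2, cyclin A2, stood at 6.33 with etoposide and 4.64 (dim) with merbarone, against 5.96 with DHT alone and 5.53 with vehicle, at least 0.72 higher. Against DHT alone the medians were -0.63 with etoposide and -0.47 with merbarone. Without either shRNA pair 4 were called lower. Of 40 DNA replication genes, 4 were higher and 7 lower, neither share above that of all genes (13.5% and 19.1%). MCM2, a subunit of the replicative helicase, stood at 7.27 with etoposide, against 8.90 with merbarone, 8.03 with DHT alone and 7.98 with vehicle (-1.63 ± 0.17, adjusted p = 0.0013), and RFC2, of the clamp loader, differed by -1.50 ± 0.17. CCNE2, the G1/S cyclin E2, stood at 6.95 with etoposide and 5.07 (dim) with merbarone, against 7.30 with DHT alone and 7.57 with vehicle, at least 1.33 higher. Without the sh-control pair 1 replication gene was called higher and 3 lower, and without the sh-TOP2B pair 0 and 3.

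The genes that set etoposide itself apart from DHT alone were few, and many of those that were lower were long. Of the 57 that were called lower with etoposide and at least 2-fold below DHT alone with etoposide only, 32 (56.1%) spanned over 200 kb from start to end, and their median span was 295 kb. Of all 11857 tested genes with a RefSeq span, 728 (6.14%) were that long, and the median span was 28.3 kb. Among the 702 genes lower with etoposide and at least 2-fold from DHT alone with merbarone only, 47 (6.70%) were that long, and among the 696 higher, 37 (5.32%). None of the 18 genes higher and at least 2-fold from DHT alone with etoposide only spanned over 200 kb. Long genes are known, as background, to depend on topoisomerases for transcription, since a polymerase that travels far winds up the DNA. Span was not used to choose these genes, but their levels were, so the shares are a description with no test. The share over 200 kb among the etoposide-only lower genes ranged from 45.0% to 56.3% over the settings tried. These counts use the levels as measured. CNBD1, of 562 kb and counted among the 32, was dim on both arrays. Other genes of the 57 were dim with etoposide. Their bounds against merbarone were -0.23 for CDC20, -0.04 for KIF2C, -0.22 for RAD51AP1 and -0.44 for NUSAP1. For IL1RAPL1, GRIK2 and PDK1 the bounds were -2.56, -1.80 and -1.96.

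Of these 57 genes, the furthest below DHT alone was IL1RAPL1, a synaptic receptor gene of 1369 kb, at 5.16 (dim) with etoposide, against 8.23 with merbarone, 8.38 with DHT alone and 8.38 with vehicle, at least 5.88-fold lower (adjusted p = 0.00065). LUZP2, a leucine zipper gene of 586 kb, stood at 7.68 with etoposide, against 10.05 with merbarone, 10.57 with DHT alone and 10.73 with vehicle (-2.37 ± 0.22, adjusted p = 0.00094). For both, merbarone, DHT alone and vehicle lay together and etoposide apart. The genes that follow were chosen after their values were seen. IMMP2L, a mitochondrial inner membrane peptidase gene of 900 kb, stood at 9.23 with etoposide, against 11.18 with merbarone, 10.94 with DHT alone and 10.95 with vehicle (-1.96 ± 0.16, adjusted p = 0.00065). FBXL17, an F-box gene of 523 kb, stood at 10.73 with etoposide, against 12.06 with merbarone, 12.27 with DHT alone and 12.28 with vehicle (-1.33 ± 0.08, adjusted p = 0.00036). LPP, a focal adhesion gene of 738 kb, stood at 9.09 with etoposide, against 10.39 with merbarone, 10.64 with DHT alone and 10.52 with vehicle (-1.30 ± 0.12, adjusted p = 0.00097). In all 3 the etoposide array lay below the other 3 arrays named by more than 1. Other probe sets of these genes did not all agree in size or sign: the difference ran from -1.96 to -0.38 over 2 probe sets of IMMP2L, from -2.40 to 1.38 over 5 of FBXL17 and from -2.29 to 0.28 over 8 of LPP. Short genes in the same class included CXCL10 and the cell cycle genes CCNB1 and CENPU, although CCNB1 and CENPU lost their calls with the median over probe sets.

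**Figure D3:**
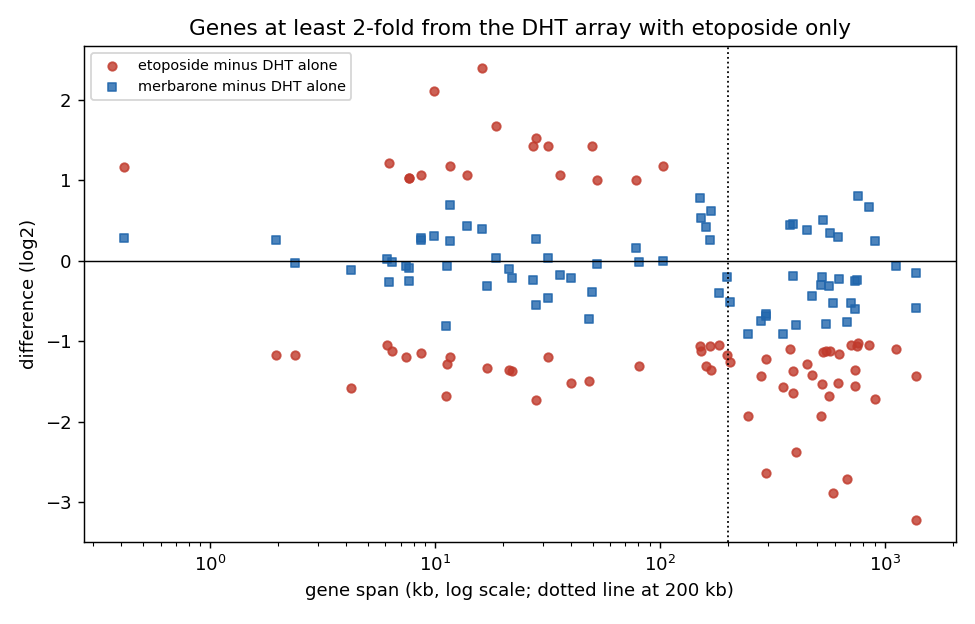
Differences from DHT alone (log2, vertical axis) against gene span (kb, log axis) for the 75 genes called between the compounds and at least 2-fold from DHT alone with etoposide only; circles are etoposide and squares merbarone, 1 array a group. Dim levels are plotted as measured. To the right of the dotted line at 200 kb lie 32 genes, all with the etoposide circle below 0 by at least 1. IL1RAPL1 is the lowest at -3.22.

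Over all tested genes, which include the 57 above, a tilt by span was seen only over 100 kb. Of the 57, 20 spanned over 500 kb, so the 2 descriptions overlap. No bin median from 5 to 100 kb lay below -0.034. The median difference was -0.03 for the 1332 genes under 5 kb, -0.07 for the 1273 of 100 to 200 kb, -0.12 for the 605 of 200 to 500 kb and -0.43 for the 123 over 500 kb. Of these 123, 8 were higher (6.50%) and 48 lower (39.0%) with etoposide, against 13.5% and 19.1% of all genes, and 2 and 31 with the median over probe sets. Against DHT alone their median was -0.41 with etoposide and -0.03 with merbarone, and 24 were at least 2-fold below it with etoposide, against 12 with merbarone. Of all 11865 genes tested, 168 were that far below it with etoposide and 895 with merbarone. At the 200 kb cut the order was the other way: of 728 genes, 49 were that far below it with etoposide and 71 with merbarone. The medians of these 728 against DHT alone were -0.21 with etoposide and -0.01 with merbarone. Genes over 500 kb had a lower median level with DHT alone (7.90) than those of 25 to 50 kb (8.87), and the part of signal level in the tilt was not tested. Single long genes differed from this. KIAA1217, of 853 kb, stood at 9.98 with etoposide, against 8.14 with merbarone, 9.37 with DHT alone and 9.61 with vehicle (1.84 ± 0.17), so it was higher with etoposide, a call lost with the median over probe sets. FGF13, of 590 kb, differed by -3.05 ± 0.41 with merbarone as the high array. It stood at 7.62 with etoposide, against 10.66 with merbarone, 7.75 with DHT alone and 8.18 with vehicle.

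**Figure D4:**
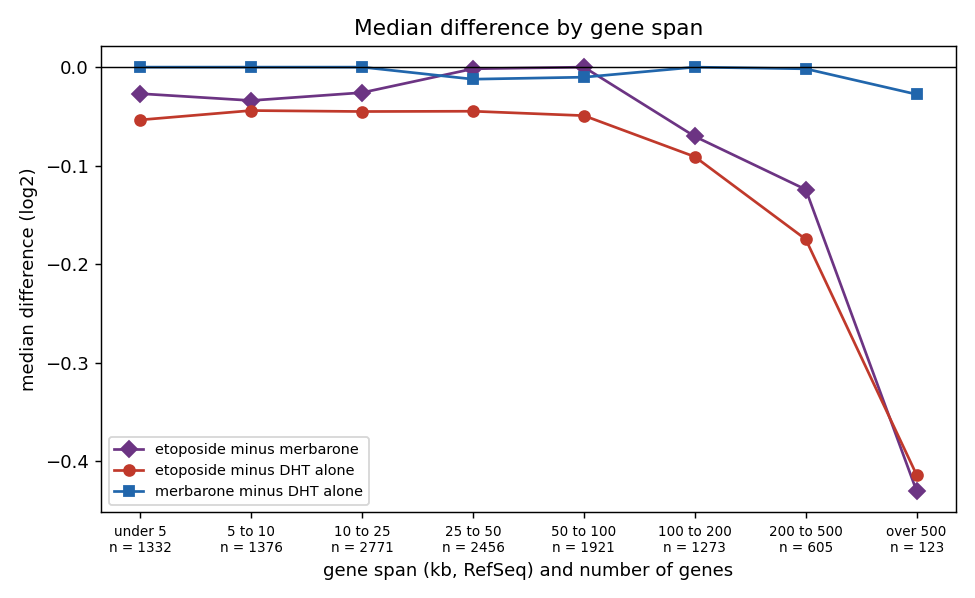
Median difference (log2, vertical axis) of genes binned by RefSeq span (kb, with the number of genes under each bin); diamonds are etoposide minus merbarone, circles etoposide minus DHT alone and squares merbarone minus DHT alone, 1 array a group. The etoposide lines drop to -0.43 and -0.41 in the bin over 500 kb, where merbarone minus DHT alone is -0.03.

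Few genes lay on opposite sides of DHT alone by 2-fold. PDE10A, a cyclic nucleotide phosphodiesterase gene of 661 kb, stood at 8.50 with etoposide, against 11.37 with merbarone, 9.89 with DHT alone and 10.24 with vehicle (-2.87 ± 0.22, adjusted p = 0.00054). VNN1, a pantetheinase, stood at 9.74 with etoposide, against 6.36 with merbarone, 8.39 with DHT alone and 8.58 with vehicle (3.38 ± 0.33, adjusted p = 0.0010). TNFSF18, a ligand of the TNF family, stood at 10.02 with etoposide, against 7.39 with merbarone, 8.66 with DHT alone and 8.99 with vehicle (2.64 ± 0.39, adjusted p = 0.0042). In these 3 genes each compound was at least 1 from DHT alone, in opposite directions. ANKRD36B, TMPRSS11E and RIMKLB were the others, at least 12.9-fold higher, at least 5.74-fold higher and at least 3.55-fold lower with etoposide.

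**Figure D5:**
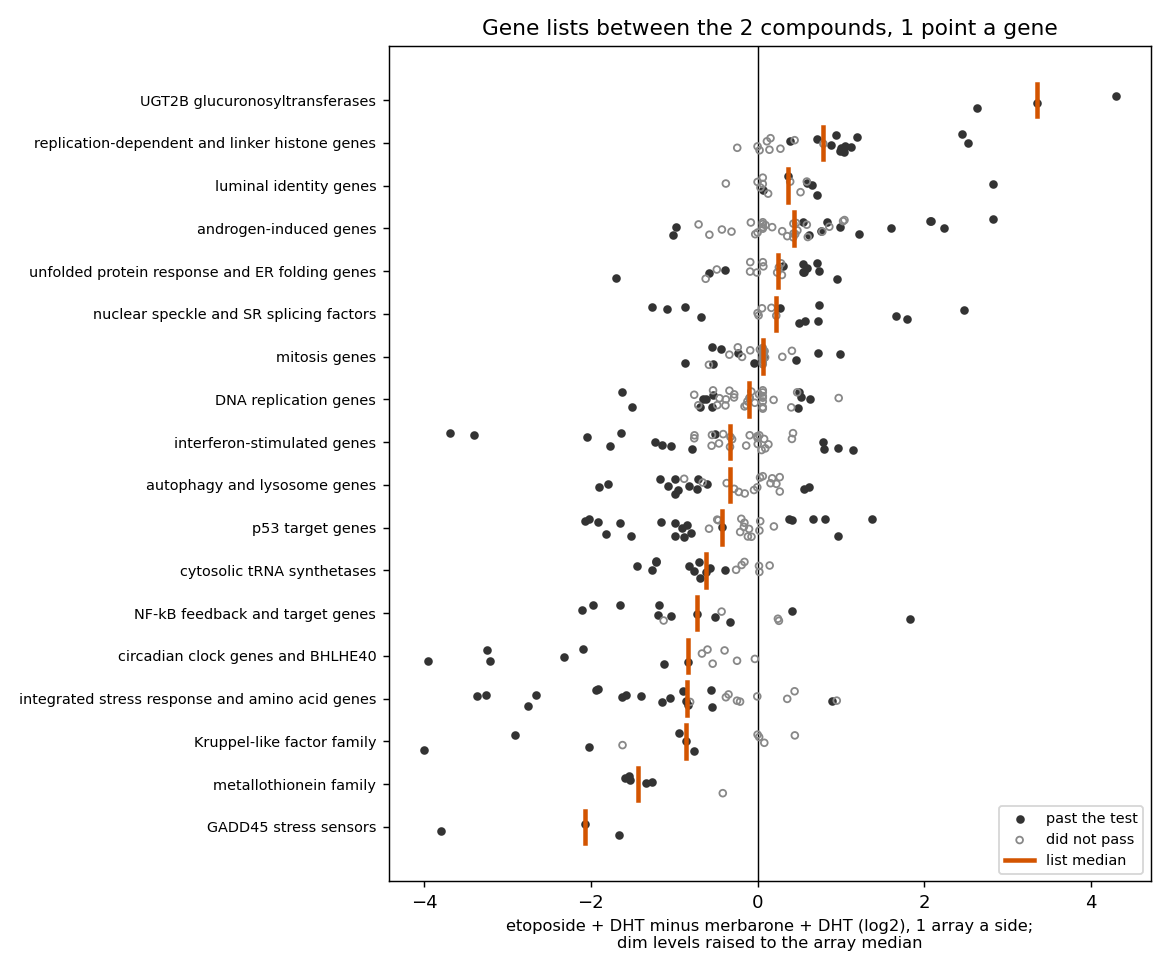
Etoposide with DHT minus merbarone with DHT (log2, horizontal axis, 1 array a side) for the members of 18 gene lists; each point is a gene, filled where called, and the thick bar is the list median, with dim levels raised to the array's median. Medians run from 3.35 for the UGT2B genes, which is a bound, and 0.79 for histone genes at the top to -1.44 for metallothioneins and -2.07 for the GADD45 genes at the bottom.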

How the data were processed

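The deposited values are log2 expression levels of 9 Affymetrix U133 Plus arrays, 1 array a group, with 54675 probe sets and no missing value. Per the submitters' processing notes, the authors used RMA to make them. The RMA version, and which arrays were normalized together, are not stated in the sources used here. RMA makes the distributions of arrays alike, which takes out any shift common to most genes.

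Of the probe sets, 41097 had 1 gene symbol in the platform annotation, 1801 several and 11777 none; 41043 matched RefSeq (GRCh38.p14), which gave gene spans and promoters. A gene was read from its brightest probe set by mean level (19775 genes, 10523 with several probe sets). Genes with a mean below the 40th percentile were left out, which left 11865. Some genes are not analysed here.

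Tests used limma 3.58.1 in R 4.3.3, two-sided, on all 9 arrays: 3 backgrounds as blocks, a DHT term, and a term each for etoposide, merbarone and steady state. This left 2 residual degrees of freedom, with 4.62 prior degrees of freedom from eBayes with a trend. The spread includes real differences between the backgrounds. The labels do not say whether arrays came from separate cultures, and part of this spread may be technical. The shRNA-series arrays, which supply 2 of the 3 pairs, had a beta-actin gap of 2.38 to 3.09. Differences from DHT alone are plain subtractions with no test. In simulated data of 11865 genes, 34 of 100 changes of 2-fold and 88 of 100 of 4-fold were called, with 9 false calls among 11665 unchanged genes. The simulation gave every array, the compound arrays included, random spread drawn from the prior of the fit. It therefore cannot show whether the compound arrays vary like the DHT and vehicle pairs, and gives no error rate for the calls here.

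The comparison, the 43 gene lists and the naming rule were chosen with earlier results of these data known. The rule took the 12 genes furthest apart in each direction, the 4 leading called members of each list, the 8 genes furthest on opposite sides of DHT alone, and 10 genes of topoisomerase II, the androgen response, p53 and MYC. Alternatives changed the filter, the probe set rule, the prior, the scaling and the pairs that supply the spread.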

Additional observations from a re-analysis of the deposited data

How the results depend on the processing

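The 1601 genes higher and 2262 lower became 1392 and 1873 with no filter, 1473 and 2027 with a filter at the 60th percentile, 1154 and 1720 with the median over probe sets, 1234 and 1728 with a prior without a trend, and 1835 and 1816 after a second quantile normalization. Centring on 23 housekeeping genes, whose median was 12.03 with etoposide and 11.83 with merbarone, gave 549 and 1743 and moved the median of all genes to -0.23; higher genes were then 23.95% of calls, against 41.44%. Leaving out 1 DHT and vehicle pair gave between 1161 and 2206 higher and between 1589 and 3108 lower. Of 172 named genes called, 112 kept their call under every alternative run and 60 lost it under at least 1. List medians changed sign for MAPK feedback genes (-0.078) and break repair genes (0.017) with the median over probe sets, for oxidative phosphorylation genes (0.012) with quantile normalization, and with centring for replacement histones (-0.16), NRF2 genes (-0.16), Mediator genes (-0.088), keratins (-0.085) and the housekeeping genes themselves (-0.19). Single genes that changed sign were HK2 (0.075, median over probe sets), TOP1 (0.043) and TOP2B (0.035, both quantile normalization). The cause was not tested. No paired analysis was possible because each group is 1 array and the labels carry no replicate numbers. Precision is limited by 1 array a side and, for dim genes, by signal over background.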

Other observations

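Transcripts that host small nucleolar RNAs in their introns were lower with etoposide in 3 of 3 genes tested, against 19.1% of all genes. Only 4 of 14 listed host genes were measured. Each gene was read from its brightest probe set. EPB41L4A-AS1 stood at 9.42 with etoposide, against 11.84 with merbarone, 10.20 with DHT alone and 9.78 with vehicle (-2.42 ± 0.24), and ZFAS1 at 11.82 with etoposide, against 13.04 with merbarone, 11.87 with DHT alone and 11.96 with vehicle (-1.22 ± 0.09). Their probe sets did not all share a sign. The difference ran from -2.42 to 0.06 over 2 of EPB41L4A-AS1 and from -1.22 to 2.25 over 4 of ZFAS1. With the median over probe sets 3 of the list were still called lower. Cytosolic ribosomal protein genes were lower in 25 of 57 and higher in 3, against 19.1% and 13.5% of all genes, with a median of only -0.18. The 25 fell to 10 without the sh-TOP2B pair and 2 after centring on housekeeping genes. Genes of hypoxia and glycolysis were lower in 9 of 29 and higher in 3, against the same shares of all genes. Among them VEGFA, the vascular growth factor, stood at 11.89 with etoposide, against 13.41 with merbarone, 11.81 with DHT alone and 11.77 with vehicle (-1.52 ± 0.20). PDK1, the kinase that shuts pyruvate dehydrogenase, stood at 5.66 (dim) with etoposide, against 7.63 with merbarone, 7.02 with DHT alone and 6.76 with vehicle. The polyamine catabolism gene SAT2 differed by -1.27 ± 0.12. Of 11 tubulin genes, 4 were higher and 0 lower, against 13.5% and 19.1% of all genes. TUBB2A led them (0.99 ± 0.21), and 0 were called after centring.

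Of 375 zinc finger genes named ZNF, 39 were higher and 80 lower, against 13.5% and 19.1% of all genes, with ZNF555 at 7.26 with etoposide against 10.37 with merbarone and 7.12 with DHT alone, and ZNF248 at 8.38 with etoposide against 5.67 with merbarone and 8.38 with DHT alone. Set against the same shares, 6 of 77 nuclear oxidative phosphorylation genes were higher and 14 lower. The counts were 2 and 5 of 27 proteasome subunits, and 1 and 6 of 18 ribosome biogenesis genes. Probe sets without exactly 1 gene symbol, which no comparison above uses, included 4752 above the array median with either compound. Of these, 37 were at least 4-fold higher and 25 at least 4-fold lower with etoposide, after a dim level was set to its array's median.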
